A study of Mus musculus with 6 samples.

Results

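Genes that carry fatty acids into B cells and through mitochondrial β-oxidation were followed across splenic B cells with and without the tetraspanin CD37. The set was fixed by name and not by a rule on measured values, though with earlier results of these data known. It holds 37 genes in 5 steps: uptake and binding, activation, the carnitine shuttle, chain shortening and electron transfer. Of these, 35 were measured, out of 19935 genes in all. Acsl3 and Cpt1b were not analysed here, because the annotation gave each of them 1 probe set (a group of probes read as 1 value), and that probe set also named a second gene. The comparison set 3 WT mice against 3 CD37KO mice (Cd37 -/-), with 1 Affymetrix mouse gene array per mouse and littermates in both groups. All 6 mice were on a C57BL/6J background, labelled as 3 months old, with no treatment named, whereas the methods give a somewhat older age for the mice of the study. Total RNA came from the CD43-/B220+ population of the spleen, isolated by removing cells that carry CD43, with B220 staining as a check on purity. The study asked whether loss of CD37 comes with altered fatty acid use, and the arrays bear on the RNA of the enzymes and carriers involved.

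Long-chain fatty acids enter cells with the help of membrane proteins such as FATP1 and CD36, are held in solution by small binding proteins and are activated to acyl-CoA by long-chain acyl-CoA synthetases. Acyl-CoA cannot cross the inner mitochondrial membrane, so CPT1 on the outer membrane moves the acyl group onto carnitine, the carrier encoded by Slc25a20 brings acylcarnitine inward in exchange for free carnitine, and CPT2 rebuilds acyl-CoA inside. Each round of β-oxidation then shortens the chain through a dehydrogenase, a hydratase, a second dehydrogenase and a thiolase, and the electrons of the acyl-CoA dehydrogenases pass through the electron transfer flavoprotein and its oxidoreductase to the respiratory chain. Resting B cells are known for low metabolic activity, and germinal centre B cells for using fatty acids as fuel.

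No gene of the 35 passed the test for a difference between the genotypes (limma, adjusted p under 0.05 over all genes), which 0.0552% of all genes did (11 of 19935). At an unadjusted p under 0.05, only Slc25a20 was higher (2.96% of all genes were) and only Cd36 was lower (2.99% of all genes, or 5.95% in both directions together). Of the 9874 genes above background, 504 were higher and 207 lower by the same measure. The differences of the 35 genes ran from -0.16 to 0.28 on the log2 scale, with a median of 0.015 against -0.019 over all genes and 0.017 over the 9874 genes above background. Differences were above 0 for 20 of the 35 genes (57.1%) and for 18 of those 31 that were above background (58.1%), against 41.8% of all genes and 57.0% of genes above background. The 95% interval of the difference included 0 for 33 genes. The outermost interval limits among the 35 genes were folds of 0.774 and 1.49, so that no interval reached a doubling or a halving. The intervals come from limma, were not widened for the number of genes, and cover the spread between these arrays.

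Background was set at a log2 level of 5.77, below which lay the means of 95% of 1015 olfactory receptor genes, which B cells are not known to use. Above it in all 6 arrays were 31 of the 35 genes, compared with 49.5% of all genes. The other 4, Acsl6, Cpt1c, Acad8 and Acad10, lay below it in every array. RMA, the method behind the deposited values, draws dim signals together, so differences of these 4 genes can be understated. Levels of different genes depend on their probes and were read only against background.

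Cd37 itself was at 11.99, 11.82 and 12.08 in the WT arrays and at 8.15, 8.17 and 8.17 in the CD37KO arrays (log2), in keeping with the labels. Of 20 mature B cell genes other than Cd37, all were above background in all 6 arrays, and their mean level was 11.57, 11.63 and 11.65 in the WT and 11.58, 11.58 and 11.58 in the CD37KO arrays. Other cells were also present. Of 18 macrophage and monocyte genes, 14 were above background in all 6 arrays. The mean level of all 18 was 8.88, 8.15 and 8.22 in WT replicates 1, 2 and 3 and 8.94, 7.91 and 8.94 in CD37KO replicates 1, 2 and 3. Of 18 neutrophil genes, 6 were above background in all 6 arrays. The mean level of all 18 was 5.94, 5.78 and 5.97 in the WT and 7.33, 6.21 and 6.72 in the CD37KO arrays. Of 12 T cell genes, 3 (Cd3e, Cd4 and Cd5) were above background in all 6 arrays, and 5, Cd3d among them, were below it in each. In such bulk samples, fewer cells of a type and less RNA per cell cannot be told apart.

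**Figure D1:**
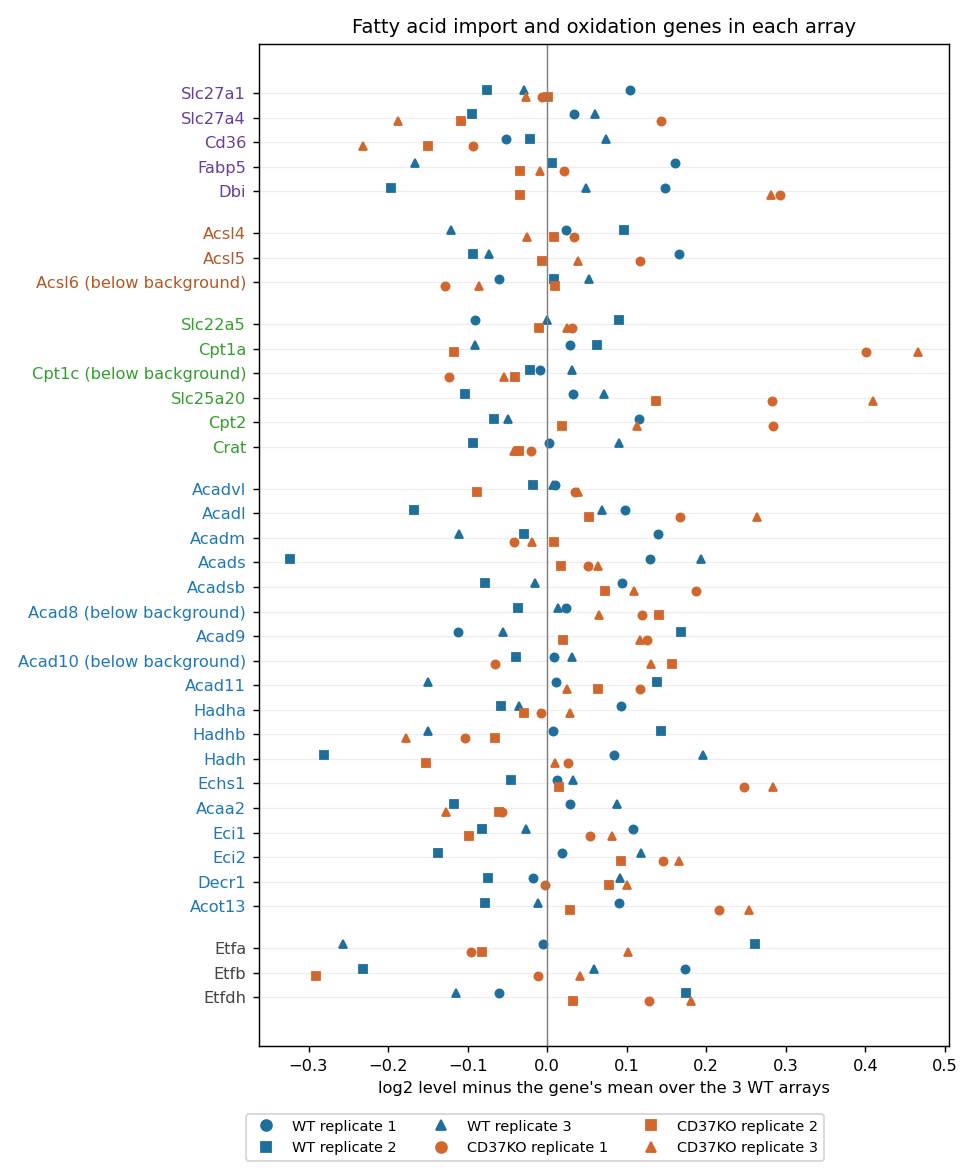
Log2 level of each measured gene in the 3 WT (blue) and 3 CD37KO (orange) arrays, minus that gene's mean over the WT arrays, with replicates 1, 2 and 3 as circle, square and triangle and the steps of the pathway in different label colours. The groups overlap for 31 of the 35 genes and not for the other 4, where 11.9% of all genes do not overlap. Slc25a20 and Acad8 have all CD37KO points to the right of all WT points, and Cd36 and Cpt1c have them to the left.

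Stretches of regulatory sequence are shown because the results below turn on their genes: Slc25a20 and Cd36, the 2 genes past an unadjusted p under 0.05, Cpt1a, which spread most over the arrays, and the segment between Hadha and Hadhb, whose levels diverged in 1 array. Each is the 250 bases before an annotated transcription start, from RefSeq on GRCm38.p6, 5′ to 3′ along the strand of the gene. Capitals mark AGGTCA or its reverse complement, the half-site bound by nuclear receptors such as the PPARs. The stretches lie at chr9:108661886-108662135, plus strand, at chr5:17835897-17836146, minus strand, at chr19:3323051-3323300, plus strand, and, for Hadhb, at chr5:30155003-30155252, plus strand.
Slc25a20: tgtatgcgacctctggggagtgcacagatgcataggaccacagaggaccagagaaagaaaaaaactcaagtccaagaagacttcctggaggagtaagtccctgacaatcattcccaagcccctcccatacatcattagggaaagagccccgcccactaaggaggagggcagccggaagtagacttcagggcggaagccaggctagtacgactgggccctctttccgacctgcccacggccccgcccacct
Cd36: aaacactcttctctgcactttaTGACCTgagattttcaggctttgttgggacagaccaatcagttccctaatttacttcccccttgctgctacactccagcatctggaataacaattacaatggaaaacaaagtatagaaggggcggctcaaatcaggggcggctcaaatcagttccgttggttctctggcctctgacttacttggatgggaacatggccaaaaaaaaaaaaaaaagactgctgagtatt
Cpt1a: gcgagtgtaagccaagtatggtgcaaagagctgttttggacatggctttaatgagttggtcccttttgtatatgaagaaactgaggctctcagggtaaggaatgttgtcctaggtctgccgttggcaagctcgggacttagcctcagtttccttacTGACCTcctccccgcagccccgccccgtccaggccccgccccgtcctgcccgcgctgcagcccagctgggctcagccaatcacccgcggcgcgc
Hadhb: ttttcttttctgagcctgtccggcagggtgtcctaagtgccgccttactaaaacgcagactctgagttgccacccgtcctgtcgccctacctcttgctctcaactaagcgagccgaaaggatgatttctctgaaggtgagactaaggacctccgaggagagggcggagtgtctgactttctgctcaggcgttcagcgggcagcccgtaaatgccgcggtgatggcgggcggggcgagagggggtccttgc
Cd36 and Cpt1a each had 1 match, and the stretches of Slc25a20 and Hadhb had none. RefSeq promoters were at hand for 30 of the 37 genes, and 7 of these held AGGTCA on either strand in the 250 bases, 23.3% against 14.3% of 15612 genes on the arrays. The 7 were Acadm, Acadvl, Acsl6, Cd36, Cpt1a, Cpt1c and Echs1. Such a match is a description of the letters, and binding was not measured.

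Among the 5 genes of uptake and binding, all were above background, and Cd36 alone had groups that did not overlap. Cd36, the scavenger receptor that takes up long-chain fatty acids, stood at log2 levels of 9.78, 9.81 and 9.90 in the WT arrays and 9.74, 9.68 and 9.60 in the CD37KO arrays. Every CD37KO array was below every WT array, a pattern that 7.57% of all genes and 456 of the 9874 genes above background shared. The log2 difference was -0.16 (95% interval -0.31 to -0.0036), a fold of 0.896, and did not pass the adjustment (adjusted p = 0.801 from limma; exact two-sided permutation p = 0.10, the smallest that 3 arrays against 3 allow). It ran from -0.19 to -0.12 when 1 array at a time was left out, and stayed under an unadjusted p of 0.05 only without CD37KO replicate 1. Cd36 is carried by marginal zone B cells, macrophages and platelets as well. The mean level of 10 marginal zone B cell genes was 9.31, 9.37 and 9.51 in the WT and 9.29, 9.35 and 9.37 in the CD37KO arrays. Of 18 macrophage and monocyte genes, 16 had a difference above 0, against 41.8% of all genes. Their mean level was 8.88, 8.15 and 8.22 in the WT and 8.94, 7.91 and 8.94 in the CD37KO arrays. That of 6 platelet and megakaryocyte genes was 6.55, 6.48 and 6.48 in the WT and 6.59, 6.42 and 6.31 in the CD37KO arrays. Of the 6, 4 were above background in all 6 arrays, and 2, Pf4 and Itga2b, were below it in each. Differences were below 0 for 5 of the 6. At an unadjusted p under 0.05 from limma, 2 were lower, Itga2b and Gp9 (2.99% of all genes were), and 1 was higher, Itgb3 (2.96% of all genes were). Stromal and endothelial genes (14 measured, 6 above background in all 6 arrays) averaged 6.29, 6.20 and 6.22 in the WT and 6.08, 6.13 and 6.06 in the CD37KO arrays. Of these 14, 6 were below background in every array. None of the 14 had a difference above 0, against 41.8% of all genes. For 4 of the 14, every CD37KO array was below every WT array, as for 7.57% of all genes. These were Igfbp7, Sparc, Cdh5 and Kdr, the last 2 below background in every array. The part of any of these cells in the difference of Cd36 was not tested.

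Slc27a1, which encodes FATP1, was at 7.09, 6.91 and 6.96 in WT and at 6.98, 6.99 and 6.96 in CD37KO B cells. The 3 CD37KO arrays lay inside the range of the WT arrays, and the log2 difference was -0.010 (95% interval -0.16 to 0.14). For this transporter, then, no shift larger than the spread between mice was seen in its RNA. Slc27a4, which encodes the related FATP4, was at 6.93, 6.81 and 6.96 in WT and at 7.04, 6.79 and 6.71 in CD37KO cells. Its groups overlapped, with a log2 difference of -0.051 (95% interval -0.27 to 0.17). Fabp5, the epidermal-type fatty acid binding protein, was at 6.76 ± 0.16 in WT and 6.75 ± 0.028 in CD37KO cells (mean ± SD of 3 arrays each), and its dimmer second probe set differed by -0.032. Dbi, the acyl-CoA binding protein, was at 8.15, 7.81 and 8.05 in WT and at 8.30, 7.97 and 8.29 in CD37KO cells. CD37KO replicates 1 and 3 were above all WT arrays and replicate 2 was within them, so that the log2 difference of 0.18 had a 95% interval from -0.088 to 0.45.

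The 3 acyl-CoA synthetases measured had log2 differences from -0.068 to 0.050, each with a 95% interval that included 0. Acsl4, which prefers arachidonic acid and is known from ferroptosis, was at 8.96 ± 0.11 in WT and 8.96 ± 0.030 in CD37KO cells (mean ± SD of 3 arrays each). Acsl5, an enzyme of mitochondria and the endoplasmic reticulum, was at 8.89, 8.63 and 8.65 in WT and at 8.84, 8.71 and 8.76 in CD37KO cells. Its log2 difference was 0.050 (95% interval -0.14 to 0.24), with WT replicate 1 the highest array of all. Acsl6, best known from brain, was below background throughout, at 5.12 ± 0.057 in WT and 5.05 ± 0.071 in CD37KO cells (mean ± SD of 3 arrays each).

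The 6 genes of the carnitine shuttle had the highest median difference of the 5 steps, 0.077 on the log2 scale, with 4 of 6 differences above 0, and 5 of them were above background. Slc25a20, the carnitine-acylcarnitine carrier of the inner membrane, was at 6.82, 6.68 and 6.86 in WT and at 7.07, 6.92 and 7.20 in CD37KO B cells. All CD37KO arrays were above all WT arrays, as for 4.33% of all genes and 689 of the 9874 genes above background. The log2 difference was 0.28 (95% interval 0.079 to 0.47), a fold of 1.21, and the adjustment over all genes was not passed (adjusted p = 0.801 from limma; exact two-sided permutation p = 0.10). It ran from 0.21 to 0.35 when 1 array at a time was left out.

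Cpt1a, the liver-type carnitine palmitoyltransferase that the study blocked with inhibitors in lymphoma cells, was at 9.31, 9.34 and 9.19 in WT and at 9.68, 9.16 and 9.75 in CD37KO cells. CD37KO replicates 1 and 3 stood above every WT array, whereas replicate 2 was the lowest array of the 6. With a range of 0.58 over the 6 arrays, Cpt1a varied the most of the 35 genes, and the SD within CD37KO (0.32) was larger than within WT (0.081). The log2 difference of 0.25 had a 95% interval from -0.078 to 0.58, and ran from 0.14 without CD37KO replicate 3 to 0.43 without CD37KO replicate 2. In the same arrays, macrophage and monocyte genes averaged 8.88, 8.15 and 8.22 in WT and 8.94, 7.91 and 8.94 in CD37KO, and neutrophil genes 5.94, 5.78 and 5.97 in WT and 7.33, 6.21 and 6.72 in CD37KO. The part of either cell type in the levels of Cpt1a and Slc25a20 was not tested.

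Cpt2, the transferase of the inner membrane, was at 6.96 ± 0.10 in WT and 7.10 ± 0.13 in CD37KO cells (mean ± SD of 3 arrays each). Slc22a5, the carnitine transporter of the plasma membrane, was at 7.82 ± 0.091 (SD, n = 3) and 7.83 ± 0.023 (SD, n = 3). Crat, which moves short acyl groups onto carnitine, was at 8.35, 8.25 and 8.44 in WT and at 8.33, 8.31 and 8.30 in CD37KO cells. Its CD37KO arrays lay close together inside the WT range (log2 difference -0.032, 95% interval -0.18 to 0.12). Cpt1c, the brain form with little catalytic activity, was below background in every array, at 5.31, 5.30 and 5.35 in WT and at 5.20, 5.28 and 5.27 in CD37KO cells. Its groups did not overlap, but it is a dim gene, and it is also a close neighbour of Cd37 on chromosome 7, 22 measured genes away.

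**Figure D2:**
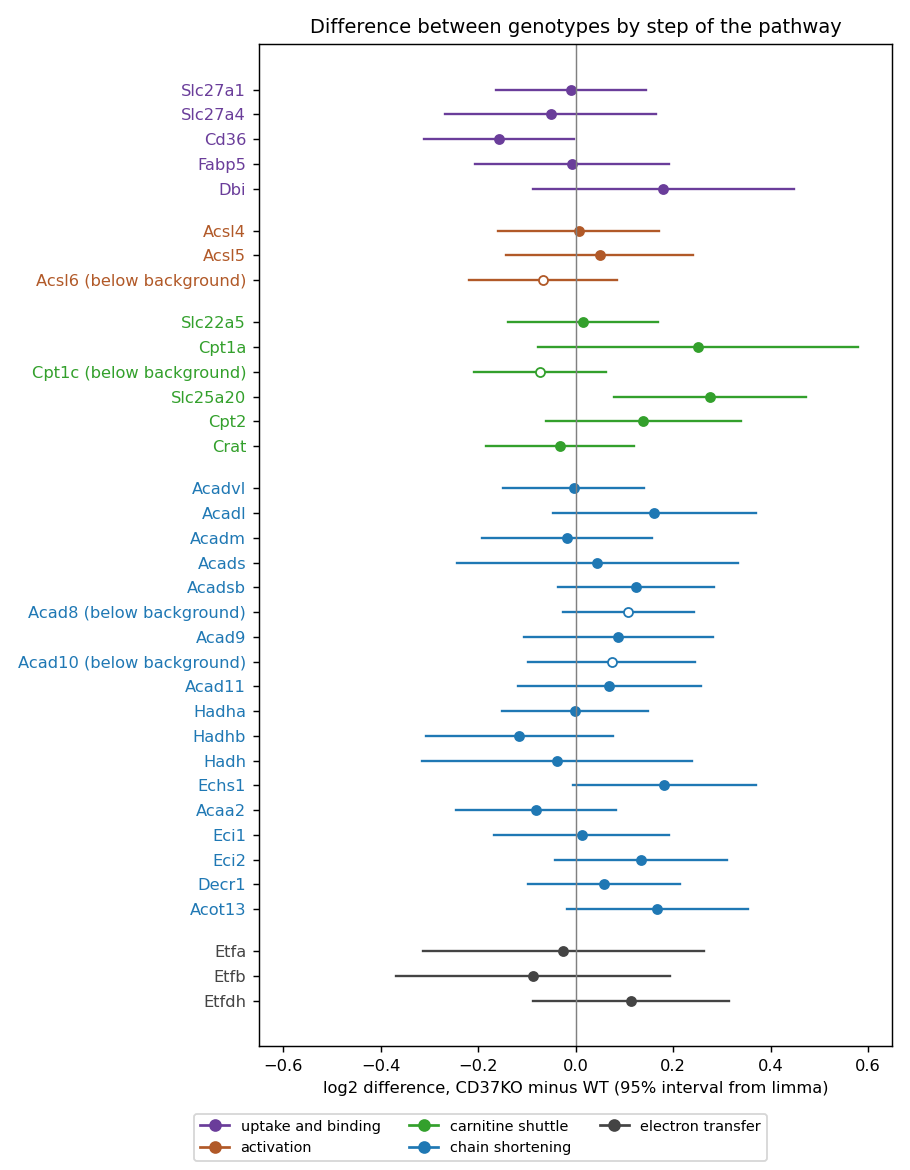
For each of the 35 genes, the log2 difference of the CD37KO mean from the WT mean, over 3 arrays a group, with its 95% interval from limma, coloured by step, with open points for the 4 genes below background in every array. The intervals of Slc25a20 and Cd36 are the only ones that leave out 0, and no limit lies beyond -0.37 or 0.58.

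Chain shortening was the largest step, with 18 genes of which 16 were above background. Differences ran from -0.12 to 0.18 on the log2 scale, 12 were above 0 and 6 below, and none passed an unadjusted p under 0.05. The acyl-CoA dehydrogenases that handle straight chains showed no common direction. Acadvl, for very long chains, was at 7.34 ± 0.015 in WT and 7.34 ± 0.073 in CD37KO cells (mean ± SD of 3 arrays each), and Acadm, for medium chains, at 8.49 ± 0.13 (SD, n = 3) and 8.47 ± 0.025 (SD, n = 3). Acadl, for long chains, was at 8.52 ± 0.15 in WT and 8.68 ± 0.11 in CD37KO cells (mean ± SD of 3 arrays each).

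Acads, for short chains, was at 7.04, 6.59 and 7.11 in WT and at 6.96, 6.93 and 6.98 in CD37KO cells. WT replicate 2 was thus far below the other 5 arrays, which lay close together, and the SD was 0.28 in WT against 0.024 in CD37KO. Its log2 difference of 0.044 had a 95% interval from -0.24 to 0.33. The further dehydrogenases of the family, Acadsb and Acad8 of branched-chain amino acid breakdown, Acad9, which also helps to assemble complex I, Acad10 and Acad11, had differences from 0.069 to 0.12. Acad8 was below background in every array, at 5.51, 5.45 and 5.50 in WT and at 5.61, 5.63 and 5.55 in CD37KO cells. Its groups did not overlap (log2 difference 0.11, 95% interval -0.027 to 0.24).

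Hadha and Hadhb encode the α and β subunits of the mitochondrial trifunctional protein, which carries out the last 3 reactions of the cycle on long chains, and their starts lie head to head, 273 bases apart. The stretch printed above for Hadhb fills most of this gap. Hadha was at 9.97, 9.82 and 9.84 in WT and at 9.87, 9.85 and 9.90 in CD37KO cells, a log2 difference of -0.0022 (95% interval -0.15 to 0.15). Hadhb was at 9.94, 10.08 and 9.78 in WT and at 9.83, 9.87 and 9.76 in CD37KO cells, a log2 difference of -0.12 (95% interval -0.31 to 0.077). In WT replicate 2, Hadha was at its lowest and Hadhb at its highest of the 6 arrays. The second probe set of Hadhb was also highest there, at 9.82 against 9.42 to 9.66 in the other arrays, so both probe sets of Hadhb diverged from Hadha in that array. The subunits differed little between genotypes, and neither difference was larger than the spread between mice.

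Among the enzymes of the later reactions, Echs1, the short-chain enoyl-CoA hydratase, was at 6.89, 6.83 and 6.91 in WT and at 7.12, 6.89 and 7.16 in CD37KO cells. CD37KO replicates 1 and 3 were above all WT arrays and replicate 2 was inside their range, with a log2 difference of 0.18 (95% interval -0.0064 to 0.37, adjusted p = 0.801 from limma). Acot13, counted with this step, is a thioesterase that releases fatty acids from acyl-CoA and not an enzyme of the cycle. It was at 7.25 ± 0.085 in WT and 7.41 ± 0.12 in CD37KO cells (mean ± SD of 3 arrays each). Again CD37KO replicates 1 and 3 were above all WT arrays and replicate 2 was within their range. Hadh, the dehydrogenase for shorter hydroxyacyl chains, was at 8.50 ± 0.25 (SD, n = 3) and 8.46 ± 0.099 (SD, n = 3), and Acaa2, the thiolase, at 8.24 ± 0.11 (SD, n = 3) and 8.15 ± 0.039 (SD, n = 3). The auxiliary enzymes for unsaturated chains gave small differences as well, 0.012 for Eci1, 0.13 for Eci2 and 0.058 for Decr1, the dienoyl-CoA reductase.

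The 3 electron transfer genes had differences on both sides of 0, and the subunits of the flavoprotein, a heterodimer, did not follow each other from array to array. Etfa, the α subunit of the flavoprotein, was at 7.80, 8.07 and 7.55 in WT and at 7.71, 7.72 and 7.91 in CD37KO cells. Etfb, the β subunit, was at 8.88, 8.48 and 8.77 in WT and at 8.70, 8.42 and 8.75 in CD37KO cells. WT replicate 2 was the highest array for Etfa and the second lowest for Etfb. The log2 differences were -0.026 (95% interval -0.31 to 0.26) for Etfa and -0.087 (95% interval -0.37 to 0.19) for Etfb. Etfb lies 87 measured genes from Cd37 on chromosome 7, and its groups overlapped. Etfdh, the oxidoreductase that hands the electrons to ubiquinone, was at 7.60, 7.84 and 7.55 in WT and at 7.79, 7.69 and 7.84 in CD37KO cells. Its log2 difference was 0.11 (95% interval -0.088 to 0.31).

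**Figure D3:**
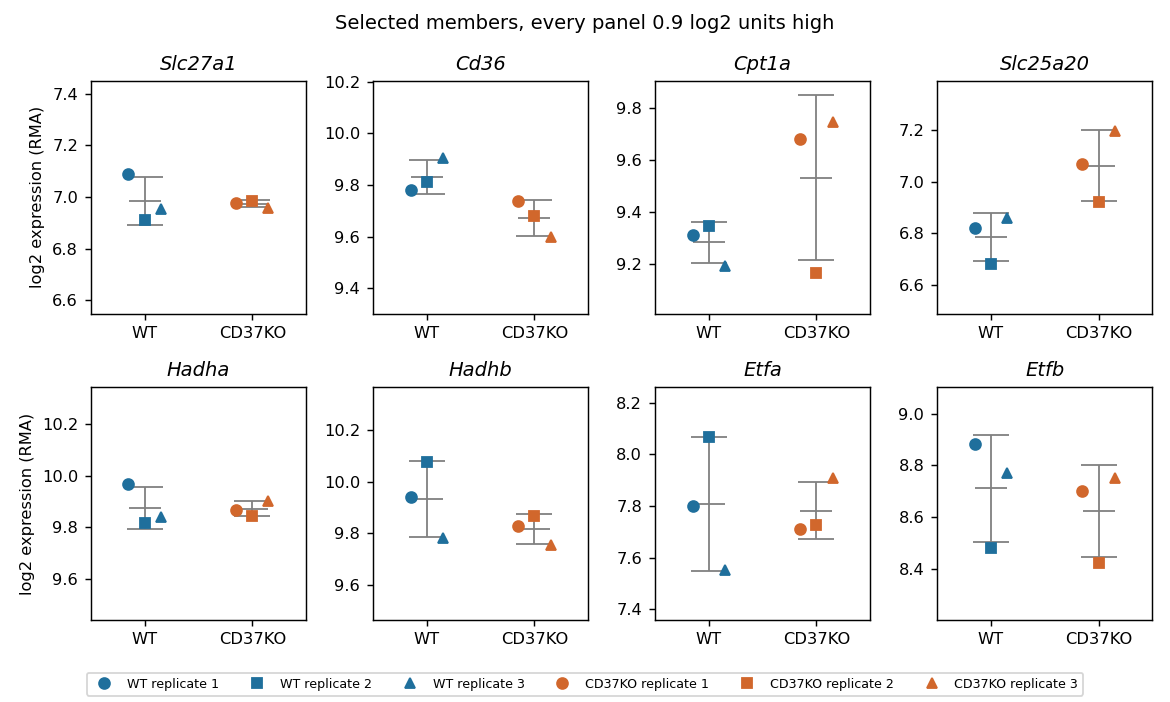
Log2 expression of 8 genes in the 3 WT (blue) and 3 CD37KO (orange) arrays, with replicates 1, 2 and 3 as circle, square and triangle and the mean with SD in grey; every panel spans the same height on the log2 scale. The CD37KO points lie above all WT points for Slc25a20 and below them for Cd36. In WT replicate 2 (blue square) Hadha and Etfb are low and Hadhb and Etfa are high.

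The arrays of 1 genotype also differed from each other in these genes. The range of a gene over the 6 arrays was 0.13 to 0.58 on the log2 scale, with a median of 0.29. WT replicate 2 was the lowest of the 6 arrays for 16 of the 35 genes (45.7%), compared with 19.6% of all genes and 26.7% of genes above background. It was also the lowest for 7 of 18 genes of the tricarboxylic acid cycle (38.9%). CD37KO replicate 3 was the highest for 9 of the 35 genes (25.7%), compared with 14.3% of all genes and 18.8% of genes above background. CD37KO replicates 1 and 3 both exceeded every WT array for 10 of the 35 genes (28.6%), against 12.4% of all genes and 20.1% of genes above background. The 10 were Dbi, Cpt1a, Slc25a20, Acadvl, Acadl, Acadsb, Acad8, Echs1, Eci2 and Acot13. CD37KO replicate 2 joined them for Slc25a20 and Acad8. Replicates 1 and 2 together exceeded all WT arrays for 2 genes (5.71%, against 6.81% of all genes and 10.4% of genes above background). Replicates 2 and 3 did so for 3 genes (8.57%, against 7.48% of all genes and 9.83% of genes above background). In the other direction, 2 genes were below all WT arrays in replicates 1 and 2, 3 in replicates 1 and 3 and 3 in replicates 2 and 3, as were 10.3%, 21.7% and 11.4% of all genes.

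By step, relative to the WT mean of each gene, the 5 carnitine shuttle genes above background averaged 0.20, -0.0016 and 0.19 in CD37KO replicates 1, 2 and 3, and 0.018, -0.022 and 0.0044 in the WT replicates. CD37KO replicate 2 therefore lay within the WT range, and the mean of this step was 0.13 ± 0.11 (SD, n = 3) in CD37KO. Without Cpt1a and Slc25a20, the other 3 genes averaged 0.099, -0.0091 and 0.032 in the CD37KO arrays. The 16 chain shortening genes averaged 0.073, -0.0026 and 0.076 in the CD37KO arrays and 0.050, -0.065 and 0.015 in the WT arrays. The uptake and binding, activation and electron transfer steps had CD37KO means of -0.0093 ± 0.072 (SD, n = 3), 0.028 ± 0.041 (SD, n = 3) and 0.00030 ± 0.11 (SD, n = 3). Over the 9874 genes above background, the same average was 0.065, -0.014 and 0.035 in CD37KO replicates 1, 2 and 3, so part of this order of arrays was shared by genes at large. The steps are described here without a test of one against another.

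**Figure D4:**
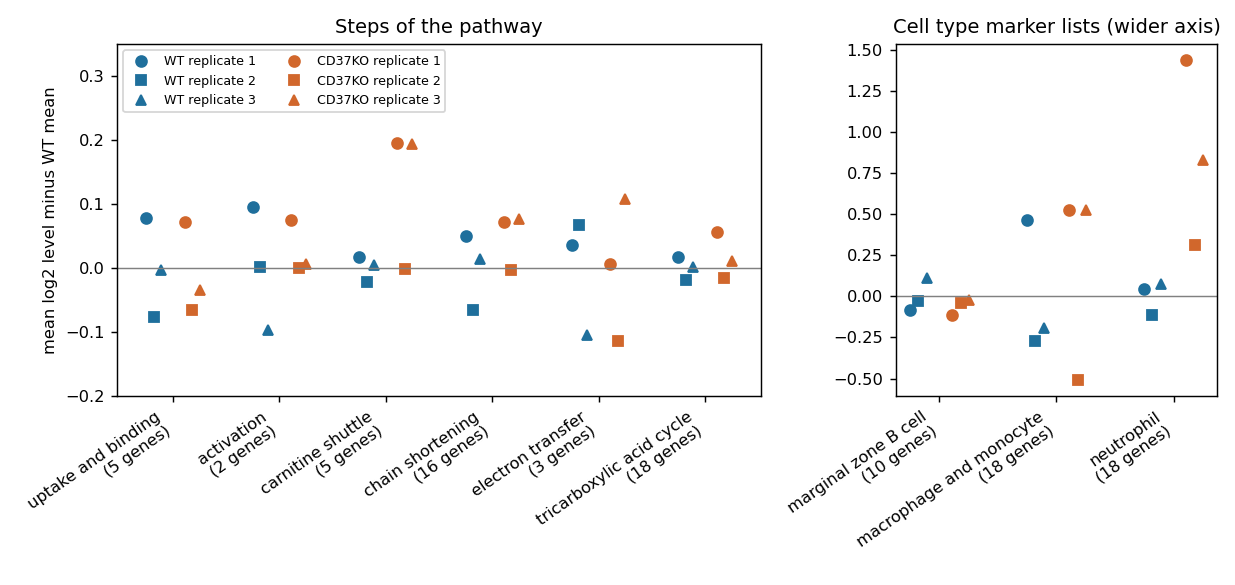
Mean log2 level, relative to each gene's WT mean, of the genes of each step above background and of the tricarboxylic acid cycle (left) and of 3 lists of cell type markers (right, on a wider axis), in the 3 WT (blue) and 3 CD37KO (orange) arrays. CD37KO replicates 1 and 3 stand apart in the carnitine shuttle at 0.20 and 0.19. Macrophage and monocyte genes are high in these arrays and in WT replicate 1, and neutrophil genes are higher in all 3 CD37KO arrays than in WT, and their part in the shuttle levels was not tested.

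Further genes of fatty acid import and mitochondrial oxidation outside the set (43 measured, 26 above background in all 6 arrays) had a median difference of 0.020. None of them passed an adjusted p from limma, and none an unadjusted p, under 0.05. Groups did not overlap for 3 of the 43, against 11.9% of all genes. These were Acot2, a mitochondrial thioesterase, at 9.61 ± 0.23 in WT and 9.80 ± 0.016 in CD37KO cells (mean ± SD of 3 arrays each), Acaca, the acetyl-CoA carboxylase whose product inhibits CPT1, at 8.18 ± 0.10 (SD, n = 3) and 8.35 ± 0.081 (SD, n = 3), and Fabp2, which was lower and below background in every array. Peroxisomal oxidation (24 measured, 14 above background in all 6 arrays) had a median difference of 0.046. Differences were above 0 for 19 of the 24 (79.2%). The share was 58.1% for the 43 genes before, 41.8% for all genes and 57.0% for genes above background. At an unadjusted p under 0.05 from limma, none of the 24 was higher (2.96% of all genes were). Lower were 2 of them (2.99% of all genes were), Acox2 and Acot12, both below background. The groups did not overlap for these 2 genes, with CD37KO lower, where 7.57% of all genes did so. With CD37KO higher, they did not overlap for 3, Acaa1b, Amacr and Pex5, against 4.33% of all genes. Of these 3, only Pex5 was above background in all 6 arrays. The tricarboxylic acid cycle, which takes up the acetyl-CoA made by β-oxidation (18 measured, 17 above background), had a median difference of -0.0086. None of its genes passed an unadjusted p under 0.05 in limma, against 5.95% of all genes. Groups did not overlap for 1 gene of the 18, against 11.9% of all genes. This was Sucla2, a subunit of succinyl-CoA ligase (log2 difference 0.17). None of the genes of these 3 lists passed an adjusted p under 0.05 from limma.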

How the data were processed

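Log2 expression values per probe set were deposited by the authors for 6 Affymetrix arrays, after RMA (background correction, normalisation between arrays and summary of probes) and with the genome build mm8 named in the submitters' processing notes. For RMA, software and version: not given in the sources used here. Only probe sets naming a single gene were used (21780 of 35361), with symbols checked by Entrez Gene ID against GRCm38.p6, and the brightest per gene was kept. CD37KO was compared with WT in 1 fit over 19935 genes with limma 3.58.1 (moderated two-sided tests from lmFit and eBayes, R 4.3.3), adjusted after Benjamini and Hochberg across every gene at a threshold of 0.05, with exact permutation tests in scipy 1.17.1 for single genes. The fit was tested on simulated data with 200 changed genes, counted at an adjusted p under 0.05. It recovered 10% of changes of 0.25 on the log2 scale, 82% of those of 0.5 and 100% of those of 1. Changes of the size seen in this set would thus mostly be missed. With 3 arrays a group precision is low, and p-values reflect the spread between these mice. The genes and the lists were chosen with earlier results of these data known. Genes given with values in every array are those named in the study, those past an unadjusted p under 0.05, those without overlap, neighbours of Cd37 (within 150 measured genes), and those with the largest difference up or down in each step. Acads, Hadha and Etfa were added after their values were seen. Alternatives were a further quantile normalisation, median centring, averaging probe sets, restricting the fit to genes above background, a trended robust eBayes, array weights, a replicate block, leaving out each array or the genes near Cd37, and other background levels.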

Additional observations from a re-analysis of the deposited data

How the results depend on the processing

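No gene of the set passed an adjusted p under 0.05 from limma under any of the 14 alternatives run. At an unadjusted p under 0.05, 1 gene was higher and 1 lower. The higher count was 2 with a further quantile normalisation, 5 with array weights, 3 with the replicate block and 1 to 5 when 1 array was left out. Higher genes at large went from 2.96% to 2.38%, 7.23% and 3.22% in these 3 fits and to between 1.52% and 6.48% with 1 array left out, where 5 genes and 6.48% both belong to the fit without CD37KO replicate 2. The labels number the replicates and name no pairing. Deviations of same-numbered arrays correlated at 0.24, 0.0068 and -0.14, and those of differently numbered arrays at -0.37 to 0.31. With 3 arrays a group, these values cannot show whether same-numbered arrays belong together. Slc25a20 was among the higher genes in every fit, joined without CD37KO replicate 2 by Dbi, Cpt1a, Echs1 and Acot13, without WT replicate 2 by Acad9 and Etfdh, and without WT replicate 3 by Eci2. The lower count was 0 with median centring, with only genes above background, with array weights and with the replicate block, and 0 to 1 when 1 array was left out. Lower genes at large went from 2.99% to 2.53%, 1.76%, 10.2% and 2.08% in these 4 fits. Of the fits with 1 array left out, only that without CD37KO replicate 1 kept Cd36, and without WT replicate 3 Hadhb took its place. The median difference turned from 0.015 to -0.0053 with a further quantile normalisation and ran from 0.0098 to 0.052 with 1 array left out. Acsl5 turned to -0.050 with array weights. With 1 array left out, Slc27a1 ran from -0.048 to 0.042, Slc27a4 from -0.15 to 0.018, Crat from -0.079 to 0.013 and Etfb from -0.20 to 0.015. Dbi ran from 0.081 (without WT replicate 2) to 0.29 (without CD37KO replicate 2), Hadhb from -0.19 (without WT replicate 3) to -0.044 (without WT replicate 2) and Etfdh from 0.057 (without WT replicate 3) to 0.20 (without WT replicate 2). Between 29 and 32 genes were above background with other levels. The causes were not tested.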
